A study of Rattus norvegicus with 4 samples.

Results

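The interferon regulatory factors (IRFs) were followed in NR8383, an established macrophage line that goes back to cells washed from the lung of a normal rat, exposed for 4 h to Printex 90, a nanoparticulate carbon black. The 8 genes Irf1, Irf2, Irf3, Irf4, Irf5, Irf7, Irf8 and Irf9 were taken as the family, out of 16581 named genes on the array, and all 12 array probes whose RefSeq accession belonged to one of them were used, out of 45598 probes. Per the labels, the exposed group was 4 biological replicates of cells at a dose of 0.9 cm²/cm² after 20 passages, each hybridised to its own 1-colour array. The series asked how the particles change expression relative to cells incubated without them. Those unexposed cells were not analysed here, so every value below is a level in exposed cells or its spread between replicates, and none is an effect of carbon black.

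IRFs are transcription factors that share an N-terminal DNA-binding domain marked by conserved tryptophans. Irf3, Irf5 and Irf7 wait in the cytoplasm and are switched on by phosphorylation below pattern recognition receptors, after which they drive type I interferon and inflammatory genes. Irf9 is the DNA-binding part of the complex ISGF3, which carries the signal of the interferon receptor to antiviral genes. Irf1 is an interferon-induced activator and Irf2 its classical antagonist at the same sites, while Irf4 and Irf8 bind DNA poorly alone and pair with PU.1 and other partners in myeloid and lymphoid cells.

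Several of these genes are themselves targets of the pathway, and the promoters of Irf1, Irf7 and Irf8 are shown because they hold matches to the sites that STAT dimers and ISGF3 read, for 2 genes with signal and 1 without. They are the 250 bases before the gene's start in the RefSeq table of build GRCr8, written 5′ to 3′ on the gene's strand, with the motif matches in capitals. Irf1 lies at chr10:38417685-38417934 on the plus strand, Irf7 at chr1:205800024-205800273 on the minus strand and Irf8 at chr19:65699034-65699283 on the plus strand.
Irf1: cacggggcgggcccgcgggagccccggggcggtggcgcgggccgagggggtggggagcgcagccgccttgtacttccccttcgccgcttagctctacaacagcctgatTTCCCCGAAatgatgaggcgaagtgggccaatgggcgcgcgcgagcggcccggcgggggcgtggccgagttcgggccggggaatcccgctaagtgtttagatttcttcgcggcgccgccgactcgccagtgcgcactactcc
Irf7: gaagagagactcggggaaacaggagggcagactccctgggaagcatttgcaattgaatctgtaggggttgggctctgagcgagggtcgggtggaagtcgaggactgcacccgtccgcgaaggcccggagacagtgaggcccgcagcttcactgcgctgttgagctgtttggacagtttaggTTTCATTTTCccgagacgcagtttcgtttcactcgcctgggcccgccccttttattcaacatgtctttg
Irf8: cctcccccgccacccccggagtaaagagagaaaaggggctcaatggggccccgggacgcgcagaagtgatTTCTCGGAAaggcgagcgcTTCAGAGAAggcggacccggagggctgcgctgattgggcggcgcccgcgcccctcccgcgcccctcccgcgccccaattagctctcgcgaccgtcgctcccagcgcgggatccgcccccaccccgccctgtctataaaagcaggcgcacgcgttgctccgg
The table gave promoters for 7 of the 8 genes, all but Irf2. Both strands were searched over the 250 bases before and 50 after the start. The gamma-activated site, spelled TTCNNNGAA, was in 3 of the 7 promoters against 8.87% of 33469 promoters. In Irf1 the match was TTCCCCGAA, 142 bases before the start. Irf8 held a pair of matches, TTCTCGGAA and TTCAGAGAA, which began 180 and 161 bases before it, and Irf9 held TTCTAGGAA, 99 bases before it. The core of the interferon-stimulated response element, GAAA, any 2 bases and GAAA, was in the Irf7 promoter alone among the 7, on the opposite strand as TTTCATTTTC, 69 bases before the start, against 3.92% of all promoters. The composite site, GGAA, any 2 bases and GAAA, which PU.1 and Irf4 or Irf8 read together and which can overlap the core element, was in 0 of the 7 against 2.94%. A match is a description of the letters and not a bound site. Across the platform, 44.0% of the 482 measured genes with the response element and 42.1% of the 1125 with the gamma-activated site had signal on all arrays, against 49.3% of all 13555 measured genes with a promoter in the table.

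Each array carried 58717 non-control spots, and between 37.5% and 40.9% of the probes were marked by the scanner software as well above background. The 75th percentile of processed intensity over spots was 546, 503, 330 and 317 on replicates 1 to 4. For that reason levels here are log2 processed intensities minus the 75th percentile of all probes on that array, so that 0 is that percentile. The percentile over probes was lower than the one over spots. The mean level of Irf1 was 3.56 with probes as the reference and 1.20 with spots. Processed intensity is on a linear scale after background subtraction. Levels of different genes come from different probes and were not ranked against each other. Of the macrophage markers, 9 of 11 with a probe had signal on all arrays, while Marco and Adgre1 had none. None of the 6 epithelial markers had signal, against 2 of 7 T cell markers (Cd3d and Lck) and 2 of 5 B and plasma cell markers with a probe (Pax5 and Prdm1). Signal was also found for 5 of 5 plasmacytoid dendritic cell markers with a probe (Tcf4, Tlr7, Il3ra, Bcl11a and Runx2). The share of all named genes with signal on all arrays was 47.9%. Siglech of the dendritic cell list was not matched to a probe, nor were Itgax, Cd79a, Ms4a1 and Jchain of the other marker lists. The T cell, B cell and dendritic cell markers were measured here in cultures of a macrophage line. Irf4 and Irf7 are also known from lymphoid and dendritic cells, and any link between their values and these markers was not tested. The RNA came from whole cultures, so more cells expressing a gene and more RNA per cell cannot be told apart.

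Of the 8 genes, 7 stood well above background on every one of the 4 arrays, and Irf8 did so on none. Over all 16581 named genes the share with signal on all arrays was 47.9%, and over all 39506 genes and unnamed transcripts it was 34%. Among the 12 probes, 9 had signal on all arrays and 3 on none. The 7 genes were Irf1, Irf2, Irf3, Irf4, Irf5, Irf7 and Irf9.

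**Figure D1:**
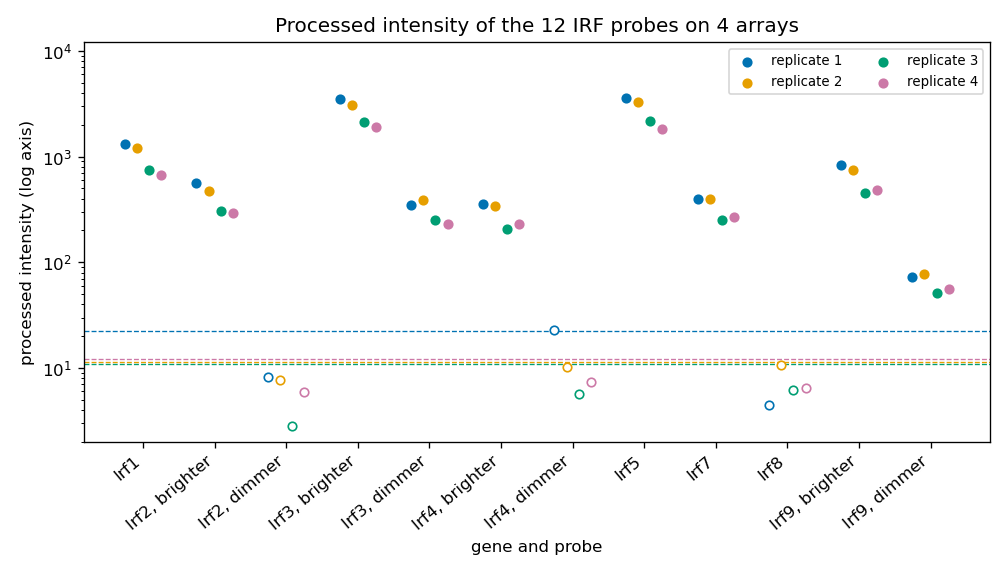
Processed intensity (log axis) of the 12 IRF probes, in which each point is 1 probe on 1 array, filled where the probe was well above background on all 4 arrays and open where it was so on none. Dashed lines give the lowest intensity of any spot marked well above background on each array (22.3, 11.3, 10.8 and 12.1), and the open points of Irf8 and of the dimmer Irf2 and Irf4 probes lie near or under them.

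Among the factors activated by phosphorylation, Irf3, which acts below TBK1, had processed intensities of 3503, 3065, 2109 and 1916 on replicates 1 to 4. Its levels were 5.01, 5.03, 5.05 and 4.91, a mean of 5.00 ± 0.062 (SD, n = 4). All 4 arrays lay within 0.14 log2 units, and replicate 4 was the lowest. This probe was spotted 10 times on each array, and the SD between single spots of 1 array was 0.064, 0.090, 0.076 and 0.10. Each array's level is the mean of its spots, so these SDs are not on the same footing as the SD between arrays.

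For Irf5, the factor below MyD88 that drives inflammatory cytokine genes in macrophages, the intensities were 3551, 3281, 2146 and 1813. The levels were 5.02, 5.13, 5.07 and 4.83 (mean 5.01 ± 0.13), highest on replicate 2 and lowest on replicate 4. Irf7, the amplifier of type I interferon production that is itself interferon-induced, had intensities of 397, 392, 250.3 and 268. Its levels of 1.86, 2.07, 1.97 and 2.07 gave a mean of 1.99 ± 0.098, with replicate 1 the lowest. Irf5 and Irf7 deviated in opposite directions on replicate 4, by -0.19 and 0.079 from their own means, and neither gene's spread passed the variance test given further on.

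In the interferon-responsive arm, Irf9, the DNA-binding subunit of ISGF3, had intensities of 830.3, 740, 448 and 484. The levels of 2.93, 2.98, 2.82 and 2.92 gave a mean of 2.91 ± 0.070. Irf1 had intensities of 1321, 1201, 750 and 670. Its levels were 3.60, 3.68, 3.56 and 3.39 (mean 3.56 ± 0.12), lowest on replicate 4. Irf2, the antagonist of Irf1, had intensities of 557, 469, 307 and 294 and levels of 2.35, 2.32, 2.27 and 2.21 (mean 2.29 ± 0.064). Both Irf1 and Irf2 had their lowest level on replicate 4, by 0.29 and 0.15 log2 units under their highest array.

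Of the partner-dependent factors, Irf4 had signal on all 4 arrays with 1 of its 2 probes, and Irf8, with 1 probe, had none. Irf4, known in macrophages for its role in alternative activation, had intensities of 357, 338, 207 and 230.3, each the mean of 2 spots. Its levels were 1.71, 1.85, 1.70 and 1.85 (mean 1.78 ± 0.084), higher on replicates 2 and 4. The SD between the 2 spots was 0.017, 0.081, 0.038 and 0.25 on replicates 1 to 4. On replicate 4 that SD was larger than the 0.15 log2 units spanned by the 4 levels. The place of replicate 4 among the arrays therefore lies within the variation between its spots. Irf8, a lineage factor of monocytes and dendritic cells, had intensities of 4.49, 10.7, 6.16 and 6.53. The lowest intensities marked well above background were 22.3, 11.3, 10.8 and 12.1 on the same arrays, so that Irf8 lay below them on every array, and the raw spot was at most 1.32 times as bright as its local background. The software's own error estimate was between 23.2% and 99.9% of the Irf8 intensity, against 10.0% to 10.1% for the brighter or single probe of each of the other 7 genes. It reached 79.0% for the dimmer Irf2 probe, 39.7% for the dimmer Irf4 probe and 12.4% for the dimmer Irf9 probe. Irf8 was measured by 1 probe, and its value is a bound on the signal of that probe. Its mark of a positive and significant signal, a weaker criterion of the software, was set on all 4 arrays. Every other IRF probe carried this mark on all 4 arrays too, among them the dimmer Irf2 probe. The raw spot of that Irf2 probe was 0.94 times as bright as its local background on replicate 3.

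Irf2, Irf3, Irf4 and Irf9 each had a second probe, and in every case the second was far dimmer. For Irf3 the brighter probe exceeded the dimmer by 3.33, 2.99, 3.07 and 3.06 log2 units, and for Irf9 by 3.50, 3.24, 3.14 and 3.11. Both probes of these genes had signal on every array, and the gap was widest on replicate 1 for both. The dimmer probe of Irf3 had levels of 1.67, 2.04, 1.98 and 1.85 and that of Irf9 -0.57, -0.26, -0.33 and -0.19, each lowest on replicate 1, where the brighter probe was not. The second probes of Irf2 and Irf4 had signal on none of the arrays. Their intensities were 8.23, 7.69, 2.81 and 5.95 for Irf2 and 22.6, 10.3, 5.67 and 7.45 for Irf4. Detection of Irf2 and Irf4 therefore rests on 1 of their 2 probes. For Irf2 and Irf9 the brighter probe was matched to a predicted RefSeq transcript, and the dimmer probe to a known one. If every probe of a gene had to be well above background, 5 of the 8 genes would count as detected. The share of all named genes under that rule is not given here, so this count was not set against it.

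Before scaling, the brightest array exceeded the dimmest by 1.97 times for Irf1, 1.96 for Irf5, 1.89 for Irf2, 1.85 for Irf9, 1.83 for Irf3, 1.72 for Irf4 and 1.59 for Irf7. After scaling the 4 levels spanned 0.30 log2 units for Irf5, the widest of the 7, and 0.14 for Irf3, the narrowest. The spread between replicates was tested against genes of like brightness (limma, one-sided F test, Benjamini-Hochberg adjustment over 14916 genes and unnamed transcripts). None of the 7 tested IRF genes passed (adjusted p between 0.987 and 0.991, limma), against 0.469% of all tested, and 0 of 7 had an unadjusted p under 0.05, against 5.06%. Irf5, with the largest SD of the 7, had an unadjusted p of 0.454 (limma). Irf8 was not tested. A p above the threshold does not show that a gene was stable, since with 4 arrays the test can call only a large excess of variance. The p-values measure only the spread between these 4 samples, and since all arrays lay on 1 slide, replicate and slide position cannot be told apart.

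**Figure D2:**
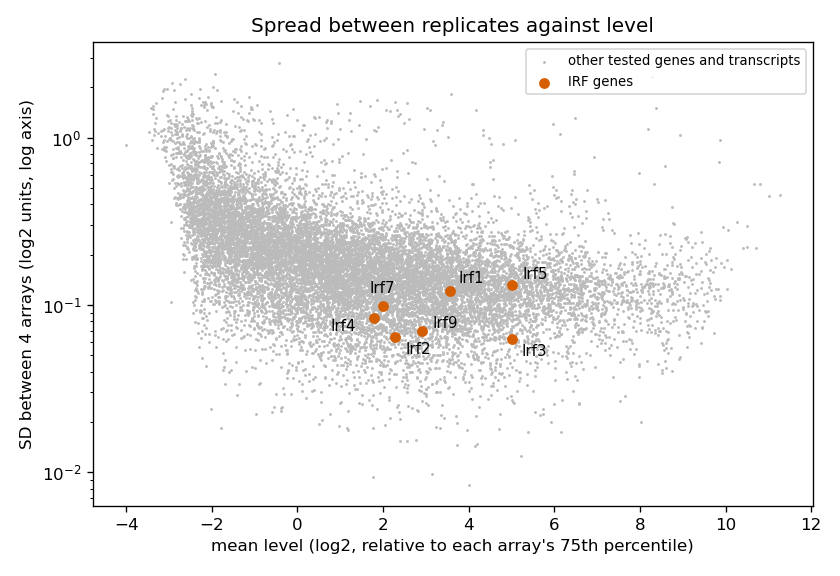
SD between the 4 arrays (log axis) against mean level for 14916 tested genes and transcripts, with the 7 tested IRF genes in orange. The IRF genes lie between an SD of 0.062 for Irf3 and 0.13 for Irf5, all under the median of 0.16.

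The median SD of the 7 genes was 0.084, against 0.16 for all tested genes, and each of the 7 lay under that median. Dim genes vary more on these arrays. Among the 6494 tested genes at least as bright as the Irf4 probe the median SD was 0.13 and 6 of the 7 lay under it, with Irf5 above. These counts describe the genes and were not tested.

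**Figure D3:**
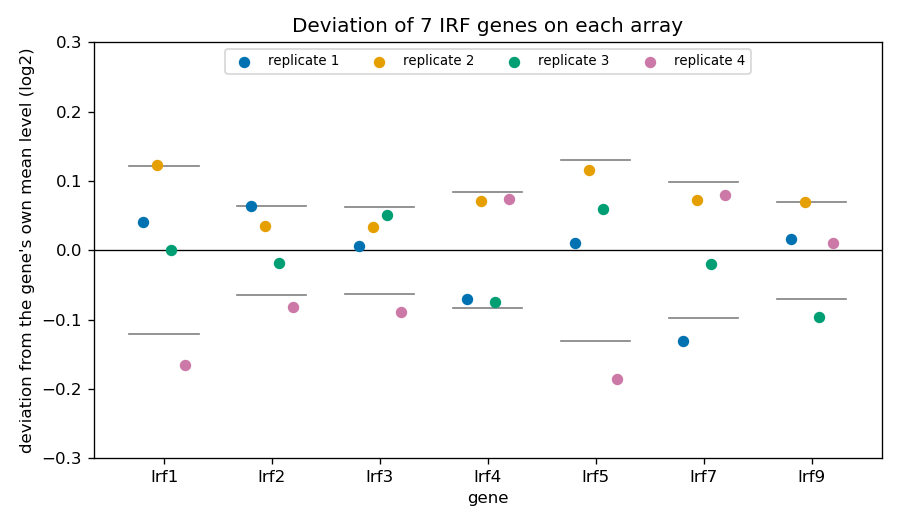
Deviation of each of the 7 IRF genes from its own mean level (log2) on each array, with grey bars at plus and minus 1 SD. Irf1, Irf2, Irf3 and Irf5 are lowest on replicate 4. Irf4 (0.073) and Irf7 (0.079) are highest there, but barely above replicate 2, where both lie at 0.072.

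By array, the median deviation of the 7 genes from their own means was 0.0099, 0.072, -0.019 and -0.081 on replicates 1 to 4, against -0.045, 0.069, 0.015 and -0.024 for all tested genes. Irf1, Irf2, Irf3 and Irf5 had their lowest level on replicate 4, which was the lowest array for 32.5% of all tested genes. Under 6 other scalings, background corrections or probe rules the family's median on replicate 4 ranged from -0.20 to -0.0074 and that on replicate 2 from -0.0065 to 0.14, so the direction on replicate 2 was not kept. For Irf5, the 3 named genes whose deviations on the 4 arrays were closest were Hspa14, Lancl1 and Ap5z1, with root mean square differences of 0.0073, 0.0095 and 0.011 log2 units. Of 7940 candidate genes, 465 lay within 0.05 of Irf5, so the 3 are the nearest of many similar patterns.

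The pathway around the family was followed in 10 lists, of which 89 genes had a probe. Signal on all arrays was found for 62 of them (69.7%), against 47.9% of all named genes. In the variance test (limma) 0 of 68 tested passed, against 0.469% of all tested, and 8 had an unadjusted p under 0.05, against 5.06%. Among sensors and adaptors, 5 of 8 had signal on all arrays. Tlr4, the endotoxin receptor, had levels of 0.68, 0.18, 0.065 and -0.68, and Tlr7, a receptor for single-stranded RNA, -1.53, -1.68, -1.59 and -0.78. Myd88, Mavs and Sting1 were the other detected adaptors, Ifih1 had signal on 2 arrays, and Tlr3 and Tlr9 on none. Of the kinases and ligases that activate IRF proteins, Ikbke (2.99 ± 0.070), Irak1 (2.48 ± 0.14), Traf6 and Chuk were detected on all arrays. Tbk1, which phosphorylates Irf3, had signal on 3 arrays and Irak4 on none.

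The interferon genes Ifnb1 and Ifng had signal on none of the arrays, while the receptor genes Ifnar1 (1.57 ± 0.32), Ifngr1 (6.06 ± 0.21) and Ifngr2 (3.69 ± 0.087) were on all. All 5 JAK-STAT transducers had signal on all arrays, among them the kinase genes Jak1 (5.57 ± 0.073), Jak2 (1.06 ± 0.13) and Tyk2 (1.79 ± 0.13), and the largest SD was that of Stat3, 0.23. Stat2 had levels of 4.49, 4.56, 4.53 and 4.54 and an SD of 0.033. Among inhibitors, Socs3 (1.81 ± 0.25), Usp18 (1.13 ± 0.23), Ptpn2 and Ptpn6 were detected on all arrays, Pias1 on 3 and Socs1 on none.

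Of the DNA-binding partners, Spi1, which encodes PU.1, had a level of 3.84 ± 0.063. Batf3 (0.80 ± 0.11), Tcf3 and Bcl6 (3.43 ± 0.14) also had signal on all arrays, and Spib, Batf and Nfatc2 on none. All 4 cofactors with a probe had signal, with Irf2bp1, a corepressor that binds Irf2, at -0.041 ± 0.22. The related Irf2bpl was at 2.00 ± 0.082, and Crebbp and Trim21 had signal besides.

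Of 24 antiviral targets of ISGF3 and Irf7 with a probe, 19 (79.2%) had signal on all arrays, against 47.9% of all named genes. Signal was found for Oas2 on 3 and Zbp1 on 1, and for Ifit1, Ifitm3 and Dtx3l on none. Isg15, a ubiquitin-like modifier, had levels of 2.86, 2.66, 3.10 and 3.45, and Ifit3, which binds viral RNA with its partner Ifit1, -0.29, -0.26, -0.11 and 0.79. Both of these were highest on replicate 4, as were Oasl (0.83, 1.18, 1.24 and 1.90) and Rsad2 (-0.89, -0.54, -0.76 and 0.18). Ifit2, a relative of Ifit3, differed from them, with levels of -0.96, -1.58, -1.20 and -1.33 and its highest array on replicate 1. Isg15, Ifit3, Oasl and Rsad2 were the 4 members of the list with an unadjusted p under 0.05 in the variance test, against 5.06% of all tested genes, and 0 of 20 tested passed after adjustment (adjusted p between 0.518 and 0.982 for the 4, limma).

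**Figure D4:**
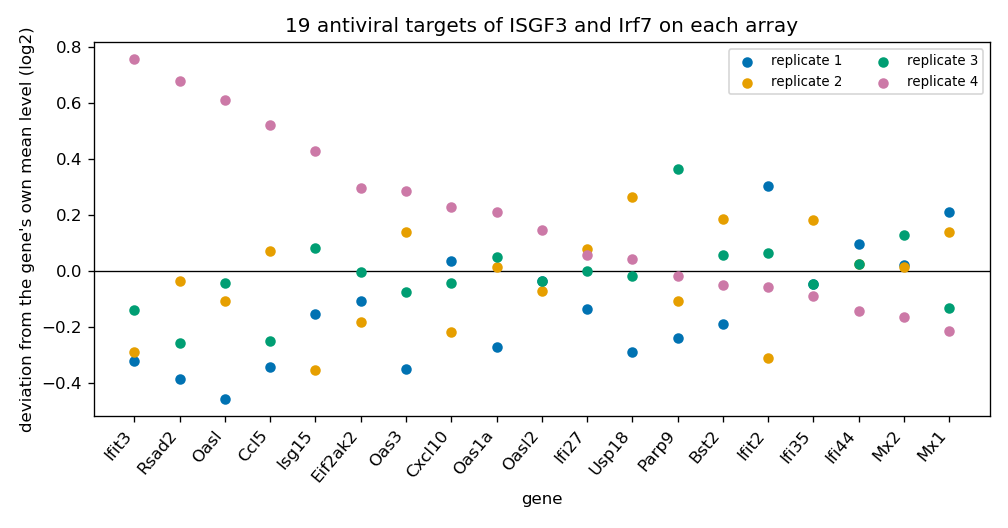
Deviation from its own mean level (log2) of each of the 19 antiviral targets with signal on all arrays, in the order of replicate 4. Replicate 4 is the highest array for the 10 genes on the left and the lowest for Ifi35, Ifi44, Mx2 and Mx1 on the right.

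Over these 19 genes the median deviation was -0.15, 0.015, -0.017 and 0.15 on replicates 1 to 4. Replicate 4 was the highest array for 10 of the 19, against 20.4% of all tested genes, and the lowest for 4, against 32.5%. Replicate 1 was the lowest for 10 of the 19 (52.6%), against 39.4%. The medians on replicate 4 thus had opposite signs for the targets and the IRF genes, but the members of both lists were mixed. There 12 of the 19 targets (63.2%) and 3 of the 7 IRF genes (42.9%), Irf4, Irf7 and Irf9, lay above their own mean. The share over all tested genes was 44.1%, near that of the IRF genes. On replicate 1 the IRF median was 0.0099, and it ranged from 0.0099 to 0.17 under the 6 other settings and was -0.024 without replicate 4. Under the 6 other scalings, background corrections or probe rules the targets' median on replicate 4 ranged from 0.024 to 0.19 and on replicate 1 from -0.15 to -0.033. The difference between the lists was not tested, and the lists and the 4 genes were chosen with earlier results of these data known.

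**Figure D5:**
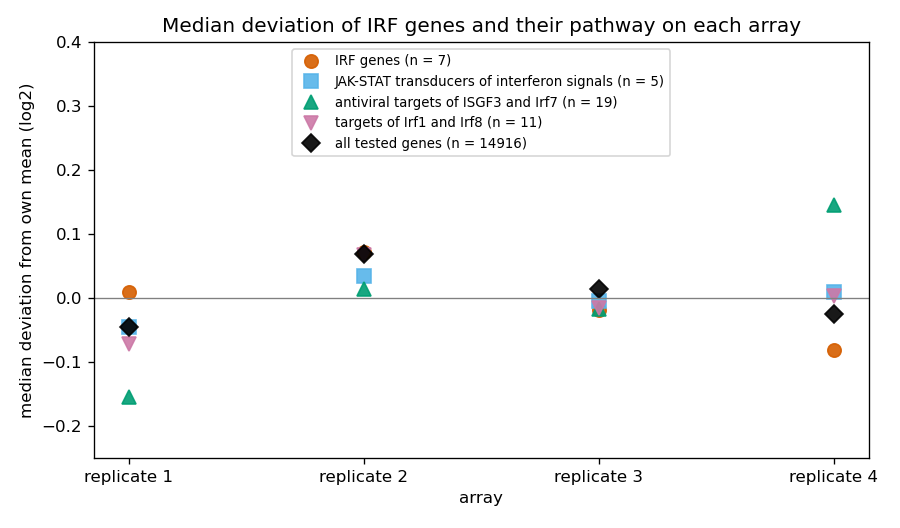
Median deviation from own mean (log2) on each array for the 7 IRF genes, 3 pathway lists and all 14916 tested genes. On replicate 4 the antiviral targets lie at 0.15 and the IRF genes at -0.081, and on replicate 1 at -0.15 and 0.0099.

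Of 16 targets of Irf1 and Irf8 with a probe, 11 (68.8%) had signal on all arrays, against the same 47.9%. They included Il18 (3.57 ± 0.21), Il18bp (0.52 ± 0.11), Gbp2 (3.69 ± 0.022), the immunoproteasome genes Psmb8 and Psmb9, the peptide transporter gene Tap1 and the oxidase subunit gene Cybb (1.89 ± 0.095). Gbp5 had the largest SD, 0.34. Nos2 had signal on 2 arrays, and the class II transactivator gene Ciita, Il12b, Il15 and Cxcl9 had it on none. The median deviation of the 11 was -0.072, 0.067, -0.015 and 0.0028 on replicates 1 to 4. For all tested genes it was -0.045, 0.069, 0.015 and -0.024, and the difference was not tested. Of 9 macrophage targets of Irf4 and Irf5 with a probe, 4 (44.4%) had signal on all arrays, near the 47.9% of all named genes. These were Arg1 (3.19 ± 0.16), Mrc1 (2.22 ± 0.13), Ccl22 and Tnf, and Ccl17 had signal on 3 arrays. The others, Retnla, Il6, Il23a and Il12a, had none.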

How the data were processed

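Expression of NR8383 cells was measured on 4 arrays of 1 exposed group, grouped by the titles in the labels, and 0 columns of other samples were present. The deposited intensity of each spot, on a linear scale, was computed by Agilent Feature Extraction 11.0.1.1 with background subtraction and detrending within the array, per the file headers (the software is also in the submitters' processing notes), and was not normalized between arrays. All arrays lay on 1 slide with 1 scan. Log2 intensity was averaged over uniform spots of a probe and scaled by subtracting each array's 75th percentile of probes.

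Accessions without versions were matched to a RefSeq table of assembly GRCr8, which named 21109 of 45598 probes and 16581 genes. The brightest probe stood for a gene, a probe counted as well above background where at least 50% of its spots carried the software's mark, and a gene was so if 1 probe was. Genes so marked on at least 2 arrays were tested with limma 3.58.1 in R 4.3.3, by a one-sided F test of the residual variance against a trended prior, at an adjusted p of 0.05, tested on simulated data first. Promoter sequences are RefSeq's. The normexp alternative used median spot signal, with an offset of 50, since no mean signal was in the files read.

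The members and the lists were chosen with earlier results of these data known. Named are all members, the first 3 genes of each list, its undetected genes if 5 or fewer, and the most variable target and JAK-STAT genes. Others were named after their values were seen. List genes were matched by symbol only, and 14 of the 103 were not matched to a probe. A few list genes are not reported here and are in none of the counts of lists.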

Additional observations from a re-analysis of the deposited data

Results flagged for a closer look

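In groups of 4 arrays, the highest or lowest array of a gene was taken up where its gap to the next array divided by the gene's whole range exceeded Dixon's critical value, which chance alone gives in about 5% of groups. Among the 12 IRF probes, 1 met this. It was Irf8, whose lowest array, replicate 1, stood apart by 0.840 of the range, with none of the 4 values well above background.

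Of the 62 pathway genes with signal on all arrays, 5 met it. The share of all tested genes that met it is not given here, so neither count was set against it. Replicate 4 stood apart as the highest array for Tlr7 (0.842), Ifit3 (0.831) and Oasl2 (0.844). Replicate 2 stood apart as the highest for Tyk2 (0.892) and Ifi35 (0.839).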

How the results depend on the processing

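The count of IRF genes past the variance test was 0 under all 14 alternatives, which covered scaling, background correction, the choice of probe, the filter on dim probes, the prior and each array left out. The smallest unadjusted p of a single gene among them was 0.201, for Irf5 without replicate 1, and adjusted p lay between 0.933 and 0.997 (limma). The count over all genes moved widely, from 70 to between 0 and 357, with 236 under another background correction, 207 with a robust prior, 1 with quantile normalization and between 27 and 161 without single arrays. The count of detected IRF genes was 7 without any 1 array, 8 with the weaker mark of a positive and significant signal, and 5 where every probe had to be well above background. Every IRF probe carried the weaker mark on all arrays, so it did not separate Irf8 from the others. The shares of all genes under these rules are not given here. Of 80 recomputed mean levels, 52 stayed within 1 SD of the value given. The rest moved with the reference chosen for 0, the other background correction, or the mean over the probes of a gene. That mean put Irf2 at -0.76, Irf3 at 3.44, Irf4 at -0.61 and Irf9 at 1.29, so these levels depend on the choice of probe. Of 36 recomputed family medians per array, 28 stayed within the spread between genes, as did 36 of 36 for the antiviral targets, an addition made after seeing the data. No paired analysis was possible because there was 1 group. Signal over background limits Irf8 and the dimmer Irf2 and Irf4 probes.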
